A study of Mus musculus with 16 samples.

Results

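The genes of transforming growth factor β (TGFβ) and bone morphogenetic protein (BMP) signalling were examined in mouse pancreatic islets exposed to interleukin-1β (IL-1β) and butyrate. The members were 40 genes given by symbol, chosen with earlier results of these data known. They were ligands, receptors, SMADs, ID genes and secreted regulators. All 40 were found by their Ensembl identifiers among the 52636 genes of the count table, and 39 of them were among the 18587 genes with enough reads to be tested.

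RNA-seq was done on 16 libraries, 4 for each of 4 conditions. Control islets were left without additions, IL-1β islets received 50 pg/mL recombinant mouse IL-1β, butyrate islets received 0.2 mM sodium butyrate, and the last condition combined both agents at these doses. All islets came from male mice aged 12 weeks with no transgene or deletion (strain C57BL/6JRj in the sample labels, C57BL/6NRj in the paper) and were kept for 10 days in medium with human serum. Each library was made from 500 islets pooled from several mice. The study made 4 independent experiments, and the libraries of each condition are numbered 1 to 4, so an error is the spread between pools and not between mice. The study asked whether butyrate, which gut bacteria release on fermenting fibre and which inhibits histone deacetylases, protects beta cells from the inflammatory cytokine IL-1β.

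Library totals were 18635943 to 25955943 counts (median 22184715). Levels are given as CPM, read counts relative to a library total that was scaled by the TMM method. The 8 beta cell markers of an islet summed to 213000 to 236000 CPM in control libraries, more than any other marker list examined. The 4 alpha cell markers summed to 21000 to 24200 CPM there. A gene was called raised or lowered when the adjusted p of edgeR's quasi-likelihood test, after Benjamini-Hochberg adjustment over all 18587 genes, was under 0.01.

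TGFβ, activin, growth differentiation factor (GDF) and BMP ligands are secreted dimers. A ligand brings together type II and type I receptors, which are serine/threonine kinases, and the type I receptor then phosphorylates receptor-regulated SMAD proteins. In general SMAD2 and SMAD3 serve TGFβ and activin receptors, whereas SMAD1, SMAD5 and SMAD9 serve BMP receptors, and both sets join SMAD4 to enter the nucleus. SMAD6 and SMAD7 inhibit the pathway, the ID genes are classical targets of BMP, and extracellular proteins such as noggin and follistatin trap ligands. In islets, activin and TGFβ signalling is known for its part in endocrine differentiation and in the control of insulin secretion.

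With IL-1β, Tgfb1 rose 5.92-fold, Inhbb 4.61-fold and Tgfbr2 3.08-fold, and the nodal and activin receptor gene Acvr1c fell 2.23-fold. The fold of Inhbb rests on 10 counts in the whole control group. Of the 39 tested members 13 were called, 8 raised (20.5%) and 5 lowered (12.8%). Across all tested genes 17.8% were called, 11.2% raised and 6.59% lowered. The median log2 fold change was -0.01 over the members and -0.03 over all genes.

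With butyrate alone, Gdf11 rose 3.63-fold, Tgfb1 2.88-fold and Acvr1c 1.72-fold, and the targets Id1 and Id4 fell 1.80-fold and 1.92-fold. The 8 calls among 39 members (20.5%) were near the 19.9% of all genes that were called. They were 6 raised (15.4%, against 8.53% of all genes) and 2 lowered (5.1%, against 11.4%). Leaving out control replicate 4 or butyrate replicate 1 left 5 and 6 members called, of which 3 were raised each time (7.69%, against 6.74% and 6.81% of all genes), so the gap between the members and all genes was smaller without either library.

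Butyrate added to IL-1β gave 8 calls against IL-1β alone (20.5% of members, 19.5% of all genes). Gdf11 rose 4.88-fold, Tgfb1 a further 2.23-fold and Acvr1c 1.94-fold, and the BMP receptor gene Bmpr1b fell 2.01-fold. In all, 7 members were raised (17.9%, against 8.41% of all genes) and 1 was lowered (2.6%, against 11.1%). The lowered members were 3 without IL-1β replicate 1 (7.69%, against 10.4% of all genes), 3 with no filter on low counts, and 2 without IL-1β replicate 3 or without replicate 2 or 3 of both agents. In islets with both agents against control, 14 members were called (35.9%, against 30.6% of all genes), 11 raised (28.2%, against 15.8%) and 3 lowered (7.7%, against 14.8%). These 4 comparisons share libraries, so their counts are not separate evidence.

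The split of all called genes into raised and lowered depended on the scaling. For IL-1β against control, raised genes were 63.0% of the calls with TMM, 51.5% with upper-quartile scaling and 79.8% with library size alone. For butyrate against control they were 42.9% with TMM and 58.5% with upper-quartile scaling. For both agents the share was 43.1% and 57.7% against IL-1β (TMM, upper quartile), and 51.6% and 66.9% against control (TMM, library size alone). None of the called members changed direction under these scalings, but their gap to all genes moved. With upper-quartile scaling, butyrate against control raised 15.4% of members and 11.9% of all genes, and lowered 5.13% and 8.43%. For both agents against IL-1β, 23.1% of members and 11.5% of all genes were raised, and 2.56% and 8.43% lowered.

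**Figure D1:**
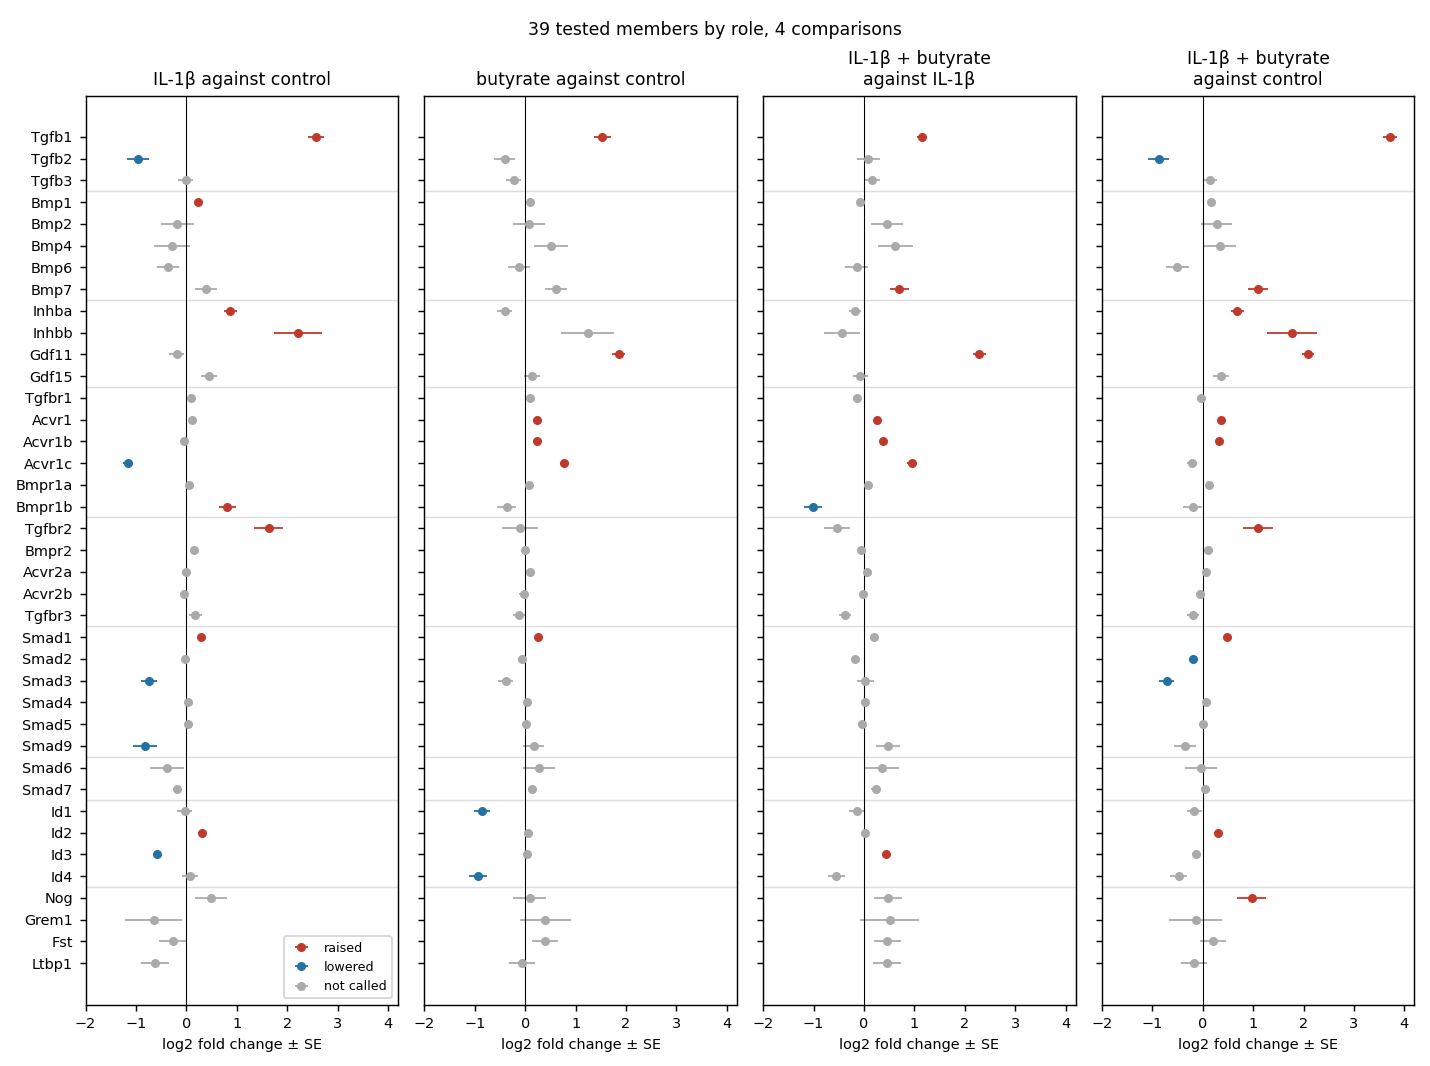
Log2 fold change (x axis, bars ± SE) of the 39 tested members, ordered by role from the TGFβ ligands at the top to the secreted regulators at the bottom, in 4 comparisons, with red for raised, blue for lowered and grey for not called. Tgfb1 is red in all 4 panels and reaches 3.72 with both agents against control, whereas most receptors and SMADs lie close to 0.

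Of the 39 tested members, 21 were called in at least 1 of the 4 comparisons and 18 in none. Of all tested genes, 41.4% were called in at least 1. Tgfb1 was the 1 member called in all 4. Per kilobase of exon (RPKM), the levels in control islets were highest for the shared effector Smad4 (19.1 RPKM), the BMP receptor Bmpr1a (15.3 RPKM), Tgfbr1 (9.81 RPKM) and the activin receptor Acvr1b (9.76 RPKM). Apart from Bmp1, which encodes a protease and not a ligand of the family, every ligand among the members was below 3 RPKM in control. Gdf15 had 2.87 RPKM, Tgfb3 0.912 RPKM and Inhba 0.901 RPKM. Tgfb1 stood at 0.204 RPKM in control, at rank 33 of the 40, and at 2.70 RPKM with both agents.

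**Figure D2:**
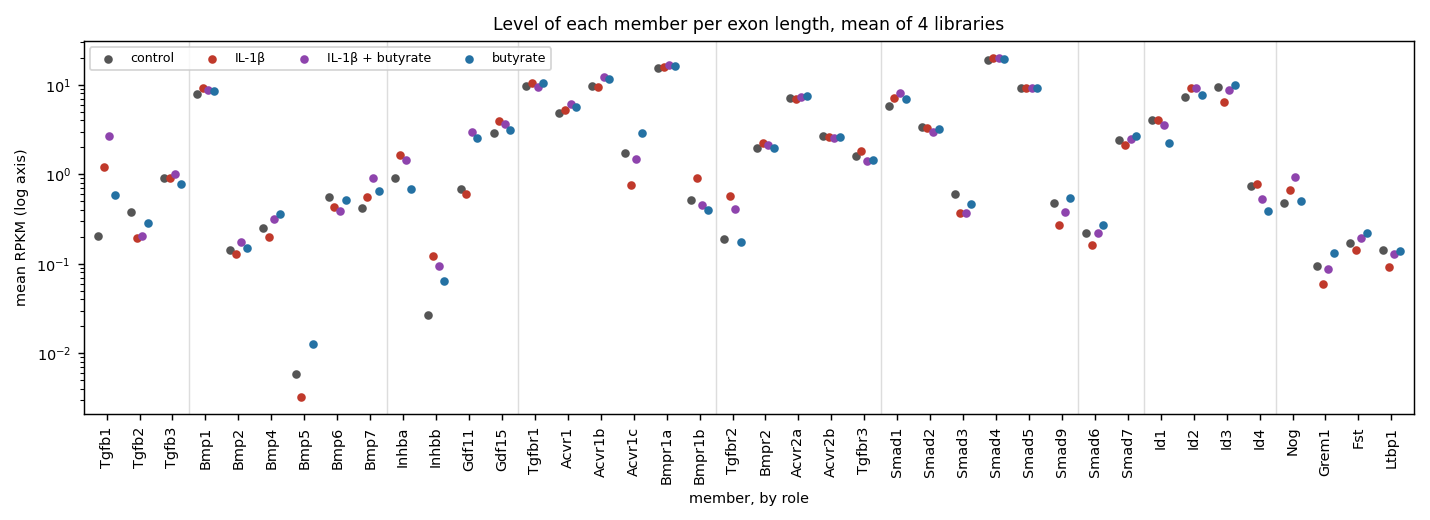
Mean level per kilobase of exon (RPKM, log axis) of the 40 members by role, with 1 point for each condition (mean of 4 libraries). The point of Bmp5 for IL-1β plus butyrate is missing because the gene had no count there. Most type I receptors and SMADs lie above most ligands, and Tgfb1 moves from 0.204 in control to 2.70 with both agents.

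Among the 7 members with a call of at least 2-fold, Tgfb1, Gdf11 and Acvr1c were called raised by butyrate both without and with IL-1β. Their promoters are shown for that reason, as the bases before the RefSeq transcript start, 5′ to 3′ on the strand of the gene (GRCm38.p6). Capitals mark CpG, a cytosine followed by a guanine. That feature was picked after the search for motifs given after the sequences. The stretches are chr7:25686752-25687001 for Tgfb1 (plus strand), chr10:128891719-128891968 for Gdf11 (minus strand) and chr2:58357896-58358008 for Acvr1c (minus strand, where only the 113 bases before the longest GENCODE transcript are printed).
Tgfb1: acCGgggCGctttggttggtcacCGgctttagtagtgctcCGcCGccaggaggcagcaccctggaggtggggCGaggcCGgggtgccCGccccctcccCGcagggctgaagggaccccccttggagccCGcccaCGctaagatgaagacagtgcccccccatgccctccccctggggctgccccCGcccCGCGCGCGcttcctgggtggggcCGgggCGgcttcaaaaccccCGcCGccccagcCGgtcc
Gdf11: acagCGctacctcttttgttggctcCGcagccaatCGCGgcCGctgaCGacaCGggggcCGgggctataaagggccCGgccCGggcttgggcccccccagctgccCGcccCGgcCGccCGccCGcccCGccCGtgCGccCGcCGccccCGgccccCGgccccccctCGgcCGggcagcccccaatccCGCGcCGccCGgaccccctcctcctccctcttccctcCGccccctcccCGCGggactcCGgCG
Acvr1c: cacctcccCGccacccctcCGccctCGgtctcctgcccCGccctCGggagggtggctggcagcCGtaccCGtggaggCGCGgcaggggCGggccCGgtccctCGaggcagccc

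In the 250 bases before the start, these promoters held 75.2% (Tgfb1), 81.2% (Gdf11) and 79.6% (Acvr1c) G and C, where the median of all 32851 windows of the RefSeq table was 52.4%. They held 21, 33 and 32 CpG, against a median of 6. Of the 32 in the window of Acvr1c, 12 lie in the 113 bases printed. The other bases of that window lie inside the gene as GENCODE gives it. At least 21 CpG occurred in 16.3% of all windows and at least 32 in 4.58%. The windows of Inhbb and Tgfbr2 had 21 and 12 CpG. On both strands the windows were searched for the SMAD binding element CAGAC, which 42.2% of all windows hold, the GC-rich SMAD site GGCGCC (9.59%) and the kappa-B site of NF-κB in a consensus form (0.356%). None of the 3 was found in the windows of Tgfb1, Gdf11 and Acvr1c, and CAGAC was found 1 time in that of Tgfbr2. The windows of Bmpr1b lie inside the gene as GENCODE gives it and were not used. Of the 40 members 29 had a window in the table, and of the 7 with a call of at least 2-fold all but Bmp7 had one.

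Among the TGFβ ligands, Tgfb1 changed most and Tgfb2 moved the other way. Tgfb1 (ENSMUSG00000002603, GRCm38 chr7:25687002-25705077) encodes the ligand TGFβ1, which is secreted in a latent form. It had 0.98, 0.959, 1.10 and 1.07 CPM in control replicates 1 to 4, and 6.31, 6.38, 4.72 and 6.86 CPM with IL-1β. Butyrate gave 2.91, 3.2, 2.40 and 3.27 CPM, and both agents gave 13.7, 13.8, 12.1 and 14.8 CPM. No library of any condition overlapped with those of another, and the order was control, butyrate, IL-1β, both agents. The log2 fold change was 2.57 ± 0.15 (SE) for IL-1β against control (edgeR adjusted p = 1.9e-13, n = 4 libraries a condition, as for every test) and 1.53 ± 0.17 for butyrate against control (edgeR adjusted p = 8.8e-08). Butyrate on top of IL-1β added 1.16 ± 0.10 (edgeR adjusted p = 2.4e-09), and both agents against control gave 3.72 ± 0.14 (edgeR adjusted p = 5.4e-18). On the log2 scale, the butyrate effect with IL-1β was lower than that without it by an amount that did not pass the test (-0.37 ± 0.20, edgeR adjusted p = 0.75). In RNA of whole islets, a change in the number of cells of a type and a change in RNA per cell cannot be told apart.

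Tgfb2, a second TGFβ ligand, had a mean of 2.17 ± 0.42 CPM (SD, n = 4) in control, 1.13 ± 0.18 with IL-1β, 1.19 ± 0.26 with both agents and 1.64 ± 0.35 with butyrate. IL-1β lowered it (log2 fold change -0.96 ± 0.21 SE, edgeR adjusted p = 0.0010), and it was also lower with both agents than in control (-0.87 ± 0.21, edgeR adjusted p = 0.0012). Every control library (1.68 to 2.65 CPM) was above every library with IL-1β (1.02 to 1.40 CPM). The third ligand, Tgfb3, was not called, with means of 2.63 to 3.42 CPM over the 4 conditions.

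The BMP ligands were low and mostly without a call. Bmp7 (ENSMUSG00000008999, GRCm38 chr2:172868012-172940321), known from kidney and brown fat development, had 2.15, 1.5, 1.34 and 1.84 CPM in control and 2.74, 2.24, 1.97 and 2.06 CPM with IL-1β. It had 3.62, 2.80, 2.04 and 2.02 CPM with butyrate and 4.18, 2.59, 4.38 and 3.42 CPM with both agents. The libraries with both agents were all above those of control, and those with butyrate alone overlapped with both. Both agents raised it by 1.09 ± 0.20 (log2, SE) against control (edgeR adjusted p = 6.5e-05). The difference from IL-1β alone was 0.70 ± 0.19 (edgeR adjusted p = 0.0069), and this call was lost when IL-1β replicate 2, 3 or 4, or replicate 1, 3 or 4 of both agents, was left out (highest adjusted p 0.038). Butyrate alone gave 0.61 ± 0.21 (edgeR adjusted p = 0.029).

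Bmp1 encodes a procollagen protease that also cleaves BMP antagonists, and IL-1β raised it from 70.4 ± 1.5 to 82.2 ± 5.4 CPM (SD; log2 fold change 0.22 ± 0.05 SE, edgeR adjusted p = 0.00087). Bmp2, Bmp4 and Bmp6 were called in no comparison. Bmp2 and Bmp4 had condition means of 0.451 to 0.812 CPM and Bmp6 of 1.53 to 2.18 CPM. The 655 counts of Bmp6 are uncertain, because 5.7% of its exon length overlaps with Txndc5 on the other strand, which had 86262 counts, and the strand setting of the counting is not stated. Bmp5 had 7 counts in all 16 libraries and was not tested.

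In the activin and GDF group, Gdf11 showed the widest gap between islets with and without butyrate. Gdf11 (ENSMUSG00000025352, GRCm38 chr10:128882295-128891718) encodes a ligand close to myostatin that signals through activin receptors. It had 1.73, 3.17, 3.15 and 3.17 CPM in control and 2.48, 2.78, 2.02 and 2.53 CPM with IL-1β. With butyrate it had 9.64, 10.6, 10.3 and 10.4 CPM, and with both agents 11.6, 11, 13.1 and 12.5 CPM. All 8 libraries with butyrate lay above all 8 without it, and the control and IL-1β libraries overlapped. Butyrate raised it by 1.86 ± 0.13 (log2, SE) against control (edgeR adjusted p = 1.5e-11) and by 2.29 ± 0.13 in the presence of IL-1β (edgeR adjusted p = 3.3e-13). IL-1β alone gave -0.19 ± 0.15 (edgeR adjusted p = 0.40), and both agents against control gave 2.09 ± 0.12 (edgeR adjusted p = 1.5e-13).

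Inhba and Inhbb encode the βA and βB chains of activins and inhibins. Inhba had means of 5.76 ± 0.32 CPM (SD) in control, 10.6 ± 1.8 with IL-1β, 9.32 ± 1.0 with both agents and 4.38 ± 1.1 with butyrate. IL-1β raised it by 0.87 ± 0.13 (log2, SE; edgeR adjusted p = 9.6e-06), and with both agents it stayed above control by 0.69 ± 0.13 (edgeR adjusted p = 0.00011). The 8 libraries with IL-1β, at 8.52 to 13.1 CPM, were all above the 8 without it, at 3.10 to 6.09 CPM. The difference between both agents and IL-1β alone was -0.18 ± 0.12 (edgeR adjusted p = 0.29).

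Inhbb (ENSMUSG00000037035, GRCm38 chr1:119415465-119422248) had few reads. Its raw counts were 2, 1, 4 and 3 in control, 11, 12, 5 and 19 with IL-1β, 5, 10, 11 and 10 with both agents, and 8, 6, 4 and 5 with butyrate. In CPM these are 0.0933, 0.0417, 0.191 and 0.128 for control, 0.569, 0.584, 0.259 and 0.686 for IL-1β, 0.203, 0.424, 0.482 and 0.482 for both agents, and 0.402, 0.266, 0.209 and 0.215 for butyrate. All control libraries were below all others, which overlapped among themselves. IL-1β raised it by 2.21 ± 0.47 (log2, SE; edgeR adjusted p = 0.00062). Both agents gave 1.77 ± 0.49 against control (edgeR adjusted p = 0.0047), a call that was lost when control replicate 1, 2 or 4, or replicate 2, 3 or 4 of both agents, was left out (highest adjusted p 0.025). At 10 counts in the whole control group, the size of these folds is loosely fixed. Gdf15, a ligand of the stress response, was not called (5.32 ± 0.99 CPM in control and 7.27 ± 1.7 with IL-1β, SD; edgeR adjusted p = 0.044).

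**Figure D3:**
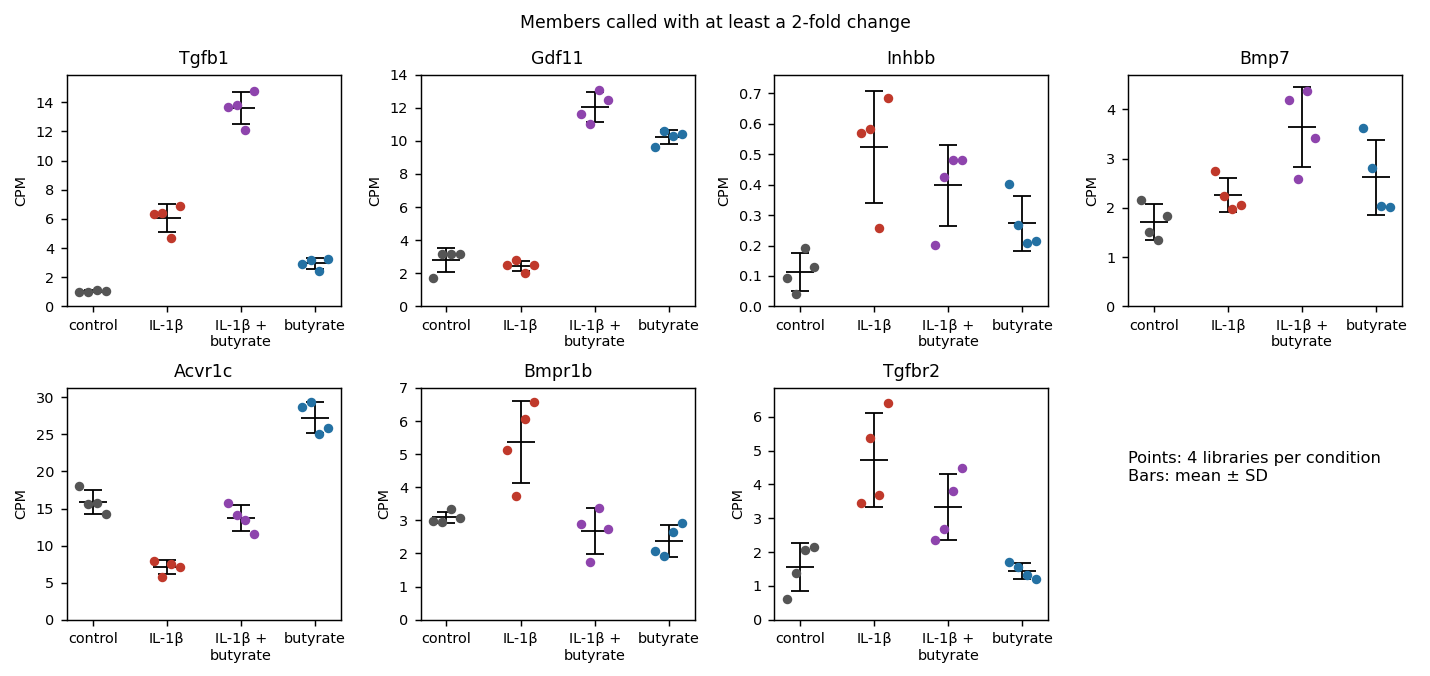
CPM (y axis, from 0) of the 7 members with a call of at least 2-fold in the 4 conditions, with 1 point for each library and bars for mean ± SD of 4 libraries. The 4 conditions do not overlap for Tgfb1, the 8 butyrate libraries of Gdf11 lie above the 8 without butyrate, and Acvr1c is lowest with IL-1β (5.79 to 7.96 CPM) and highest with butyrate (25.1 to 29.4 CPM).

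Of the 6 type I receptors, butyrate raised 3 against control and the same number in the presence of IL-1β, and these were Acvr1, Acvr1b and Acvr1c each time. Of all tested genes, butyrate raised 8.53% and 8.41% in these comparisons. Acvr1c (ENSMUSG00000026834, GRCm38 chr2:58267453-58357895) encodes ALK7, a receptor for nodal, activin B and related ligands that is known from beta cells and fat. It had 18.1, 15.6, 15.7 and 14.2 CPM in control and 7.96, 5.79, 7.57 and 7.15 CPM with IL-1β. Butyrate alone gave 28.7, 29.4, 25.1 and 25.9 CPM, and both agents gave 15.8, 14.1, 13.5 and 11.6 CPM. The IL-1β libraries were below and the butyrate libraries above all others, while both agents together overlapped with control. IL-1β lowered it (log2 fold change -1.16 ± 0.10 SE, edgeR adjusted p = 1.4e-09), and butyrate raised it by 0.78 ± 0.09 against control (edgeR adjusted p = 1.9e-07) and by 0.95 ± 0.10 against IL-1β (edgeR adjusted p = 1e-07). Both agents against control gave -0.21 ± 0.09 (edgeR adjusted p = 0.080), and the effect of butyrate was higher with IL-1β than without it by an amount that did not pass the test (0.18 ± 0.14, edgeR adjusted p = 0.89).

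Bmpr1b (ENSMUSG00000052430, GRCm38 chr3:141837136-142169425), a BMP and GDF receptor, moved in the other direction. It had 2.99, 2.96, 3.34 and 3.08 CPM in control and 5.12, 3.75, 6.06 and 6.57 CPM with IL-1β. With both agents it had 2.88, 1.74, 3.37 and 2.74 CPM, and with butyrate 2.06, 1.91, 2.66 and 2.92 CPM. The IL-1β libraries were above all others. IL-1β raised it by 0.81 ± 0.17 (log2, SE; edgeR adjusted p = 0.00083), and butyrate lowered it in the presence of IL-1β (-1.01 ± 0.18, edgeR adjusted p = 8.4e-05). Without IL-1β the butyrate effect was -0.37 ± 0.19 (edgeR adjusted p = 0.16), and the difference between these effects did not pass the test (-0.64 ± 0.26, edgeR adjusted p = 0.54).

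Acvr1 encodes ALK2, a BMP type I receptor, and Acvr1b encodes ALK4, the main activin type I receptor. Their changes were small. Acvr1b had 43.1 ± 2.8 CPM (SD) in control, 50.7 ± 3.8 with butyrate, 41.8 ± 2.4 with IL-1β and 54.2 ± 1.0 with both agents. The rise with butyrate was 0.24 ± 0.06 (log2, SE) against control (edgeR adjusted p = 0.0018) and 0.38 ± 0.06 against IL-1β (edgeR adjusted p = 8.3e-06). Acvr1 went from 23.3 ± 1.5 CPM in control to 27.5 ± 1.4 with butyrate and from 25.1 ± 0.55 with IL-1β to 29.8 ± 1.6 with both agents (log2 fold changes 0.24 and 0.25, edgeR adjusted p = 0.0021 and 0.0013). Against control, both receptors were called for both agents (log2 fold change 0.36 ± 0.06 for Acvr1 and 0.33 ± 0.06 for Acvr1b). For butyrate against control, the call of Acvr1 was lost without control replicate 3 or 4 or butyrate replicate 1 (lowest log2 fold change 0.21). That of Acvr1b was lost without control replicate 2 or 4 or butyrate replicate 1 (lowest 0.19). The call of Acvr1 against IL-1β was lost without replicate 1 of both agents (0.20). The abundant receptors Tgfbr1 and Bmpr1a were called in no comparison, with condition means of 62.4 to 68.4 and 97.2 to 106 CPM.

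Among the type II and type III receptors, calls were limited to Tgfbr2 in these 4 comparisons. Tgfbr2 (ENSMUSG00000032440, GRCm38 chr9:116084293-116175360) encodes the receptor that binds TGFβ directly. It had 0.607, 1.38, 2.05 and 2.14 CPM in control and 3.46, 5.36, 3.68 and 6.39 CPM with IL-1β. Both agents gave 2.36, 2.67, 3.81 and 4.48 CPM, and butyrate 1.71, 1.55, 1.31 and 1.20 CPM. All 8 libraries with IL-1β were above all 8 without it, and IL-1β overlapped with both agents. IL-1β raised it by 1.63 ± 0.29 (log2, SE; edgeR adjusted p = 0.00040). Both agents against control gave 1.09 ± 0.30 (edgeR adjusted p = 0.0080), which was lost in 9 of 23 alternative analyses (highest adjusted p 0.028). These left out control replicate 1 or 2, IL-1β replicate 2, replicate 3 or 4 of both agents, or any 1 of the 4 butyrate libraries. Bmpr2, Acvr2a, Acvr2b and Tgfbr3, the last a co-receptor, were called in no comparison, with log2 fold changes from -0.38 to 0.16. Part of Acvr2a (7.8% of its exon length) overlaps with Orc4 on the other strand.

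Macrophage markers moved with IL-1β in the same libraries as Tgfb1 and Tgfbr2. Of 8 macrophage markers, IL-1β raised 7 and lowered 1, C1qa, with a median log2 fold change of 2.22. Without C1qa, which alone had 99.6 to 124 CPM in control, the other 7 summed to 15.6 to 25.6 CPM in control and to 74.6 to 131 CPM with IL-1β. They summed to 33.3 to 72.5 CPM with both agents and to 12.2 to 21.4 CPM with butyrate. Tgfbr2 had the same order of condition means as this sum, IL-1β, both agents, control and butyrate. The 8 markers with C1qa summed to 125 to 140 CPM in control, 166 to 198 with IL-1β, 91.5 to 119 with both agents and 82.8 to 104 with butyrate. In that sum both agents lay below control, unlike in Tgfbr2. Most of the sum in control was C1qa, which had a mean of 111 CPM there and 51.2 CPM with both agents. The order of condition means of Tgfb1 was both agents, IL-1β, butyrate and control. It had 12.1 to 14.8 CPM with both agents and 4.72 to 6.86 CPM with IL-1β. Butyrate alone gave 2.40 to 3.27 CPM, and control had 0.959 to 1.10 CPM. The part of macrophages in the values of Tgfb1 and Tgfbr2 was not tested.

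**Figure D4:**
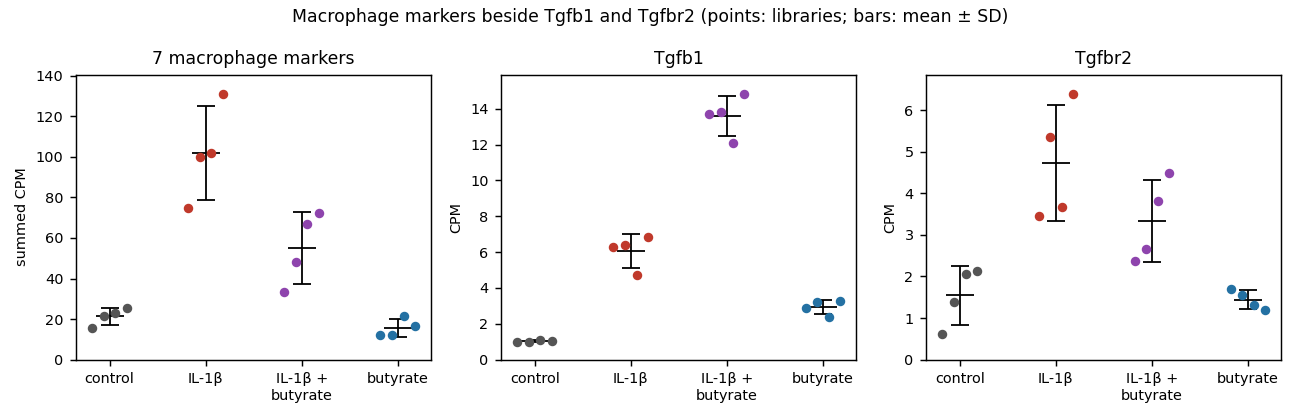
Summed CPM of 7 macrophage markers (left; Adgre1, Csf1r, Cd68, Lyz2, Mrc1, C1qb and Aif1) and CPM of Tgfb1 (middle) and Tgfbr2 (right) in the 4 conditions, with 1 point for each library and bars for mean ± SD of 4 libraries. The marker sum and Tgfbr2 are highest with IL-1β, and Tgfb1 is highest with both agents (12.1 to 14.8 CPM).

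Other marker lists moved as well. IL-1β lowered 7 of the 8 beta cell markers and raised 1, and their sum was 137000 to 178000 CPM with IL-1β and 137000 to 169000 CPM with both agents, against 222000 to 261000 CPM with butyrate. The duct list, raised in 2 of 5 tested genes by IL-1β, summed to 371 to 398 CPM in control and 540 to 631 CPM with IL-1β. It was 355 to 399 CPM with butyrate and 550 to 844 CPM with both agents. The higher sums lay largely in Spp1, with means of 11.9 CPM in control, 27.7 with butyrate, 158 with IL-1β and 348 with both agents, the same order of means as Tgfb1. IL-1β raised Spp1 by 3.74 and both agents by 4.87 on the log2 scale, and butyrate without and with IL-1β gave 1.21 and 1.13 (edgeR adjusted p = 0.040 and 0.014). Fibroblast and stellate cell markers, of which 8 were tested, had 1 lowered gene with IL-1β and sums of 9.47 to 18.1 CPM in control and 6.10 to 15.2 CPM with IL-1β. For 6 tested endothelial markers 1 was raised, and the sums of all 8 were 13.4 to 14.9 and 10.7 to 16.1 CPM. Of the 4 tested acinar markers 1 was raised, of the 4 alpha cell markers 2 were lowered and of the 3 delta cell markers none was called with IL-1β. With butyrate alone, 2 beta cell markers and 1 delta cell and 1 fibroblast marker were raised, and 1 beta cell marker, 2 alpha cell markers and the macrophage marker C1qa were lowered. The other 7 macrophage markers were not called with butyrate alone. The part of these changes in the members' values was not tested.

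Of the receptor-regulated and common SMADs, Smad3 and Smad9 were lower and Smad1 higher with IL-1β. Smad3, the effector of TGFβ and activin, had 3.38 ± 0.55 CPM (SD) in control, 2.03 ± 0.35 with IL-1β, 2.06 ± 0.17 with both agents and 2.57 ± 0.27 with butyrate. All 8 libraries with IL-1β (1.75 to 2.49 CPM) lay below the 4 control libraries (2.65 to 3.92 CPM). The log2 fold change against control was -0.74 ± 0.16 (SE) with IL-1β (edgeR adjusted p = 0.00066) and -0.71 ± 0.15 with both agents (edgeR adjusted p = 0.00052), and butyrate on top of IL-1β gave 0.03 ± 0.17 (edgeR adjusted p = 0.91). Smad2, its close relative, had 29.4 ± 0.49 CPM in control and 25.8 ± 1.5 with both agents (-0.19 ± 0.05, edgeR adjusted p = 0.0045). The call of Smad2 was lost in 7 of 23 alternative analyses, at scaling by library size alone, with no filter, and without control replicate 1, 3 or 4 or replicate 1 or 3 of both agents (log2 fold changes -0.19 to -0.11).

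Among the SMADs of the BMP branch, Smad1 had 36.5 ± 2.6 CPM (SD) in control, 44.7 ± 3.5 with IL-1β, 43.3 ± 3.5 with butyrate and 51.3 ± 2.1 with both agents. The lowest library with IL-1β (40.7 CPM) was above the highest of control (39.5 CPM), and the libraries with both agents reached 48.6 to 53.6 CPM. It rose by 0.29 ± 0.06 (log2, SE) with IL-1β (edgeR adjusted p = 0.00074), by 0.25 ± 0.06 with butyrate (edgeR adjusted p = 0.0036) and by 0.49 ± 0.06 with both agents (edgeR adjusted p = 3e-07). The call for butyrate was lost without control replicate 3 or 4 or butyrate replicate 1 or 2 (lowest log2 fold change 0.19). Smad9 went from 2.56 ± 0.64 CPM in control to 1.47 ± 0.56 with IL-1β (-0.82 ± 0.23, edgeR adjusted p = 0.0086). This call was lost in 12 of 23 alternative analyses (highest adjusted p 0.048), namely without any of replicates 2, 3 and 4 of control, IL-1β and butyrate, or without replicate 2 or 4 of both agents, and at library size alone. Smad4 and Smad5 were called in no comparison, with log2 fold changes of -0.03 to 0.07 and condition means of 67.5 to 74.5 CPM. The inhibitory Smad6 and Smad7 were also without a call, and Smad7, itself a target of the pathway, had 10.9 ± 1.1 CPM in control, 9.62 ± 0.83 with IL-1β, 11.3 ± 0.36 with both agents and 12.0 ± 0.32 with butyrate.

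The 4 ID genes, which encode inhibitors of basic helix-loop-helix transcription factors, did not move together. Butyrate lowered Id1 and Id4, IL-1β lowered Id3 and IL-1β raised Id2. Id1 had 4.11, 4.71, 4.87 and 5.01 CPM in control and 1.61, 2.89, 3.14 and 2.75 CPM with butyrate, without overlap (log2 fold change -0.85 ± 0.16 SE, edgeR adjusted p = 0.00024). With both agents it had 4.17 ± 0.27 CPM (SD) against 4.64 ± 1.0 with IL-1β (-0.14 ± 0.15, edgeR adjusted p = 0.53). Id4 had 2.66, 3.54, 2.72 and 2.57 CPM in control and 1.36, 1.29, 1.72 and 1.63 CPM with butyrate, again without overlap (-0.94 ± 0.18, edgeR adjusted p = 0.00021). In the presence of IL-1β the butyrate effect on Id4 was -0.55 ± 0.17 (edgeR adjusted p = 0.014).

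Id3 fell with IL-1β from 16.4, 19.1, 16.9 and 16.1 CPM to 12.9, 12.0, 11.2 and 10.1 CPM (log2 fold change -0.58 ± 0.08 SE, edgeR adjusted p = 1.5e-06). With both agents it had 15, 15.9, 17 and 14.6 CPM, all above IL-1β alone (0.44 ± 0.08, edgeR adjusted p = 8.1e-05) and overlapping with control. Butyrate alone gave 17.6 ± 0.72 CPM (SD; 0.04 ± 0.07, edgeR adjusted p = 0.76). Id2 was higher in the IL-1β libraries (22.2 ± 2.1 CPM) and in those with both agents (22.4 ± 1.6) than in control (18 ± 0.91). Its log2 fold changes against control were 0.30 ± 0.07 (edgeR adjusted p = 0.0016) and 0.31 ± 0.07 (edgeR adjusted p = 0.00046).

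**Figure D5:**
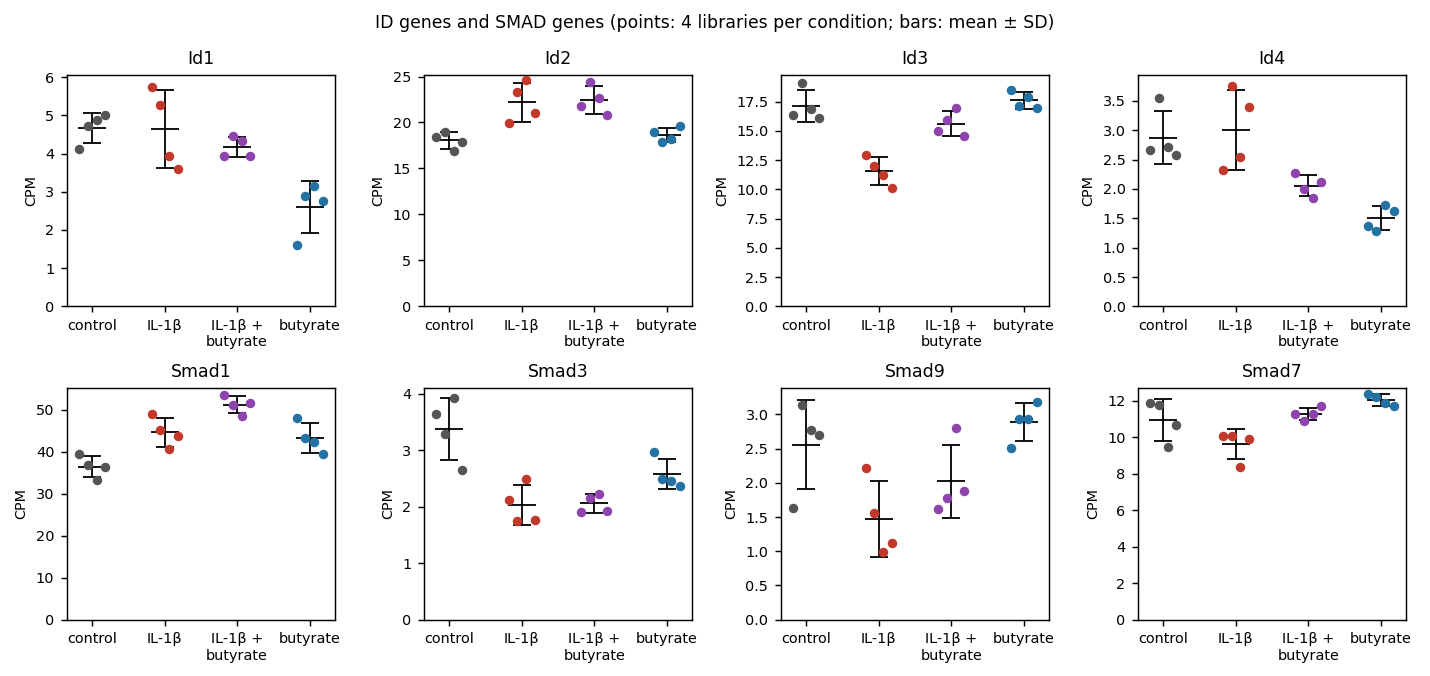
CPM (y axis, from 0) of the 4 ID genes (top) and of Smad1, Smad3, Smad9 and Smad7 (bottom) in the 4 conditions, with 1 point for each library and bars for mean ± SD of 4 libraries. Id1 and Id4 are lowest with butyrate alone (means 2.60 and 1.5 CPM), Id3 is lowest with IL-1β (11.6 CPM), and Smad3 is low in both conditions with IL-1β.

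Of the secreted antagonists and the latency protein gene, Nog was called 1 time and Grem1, Fst and Ltbp1 in no comparison. Nog, which encodes the BMP antagonist noggin, had 0.607, 0.667, 1.00 and 0.942 CPM in control and 0.772, 1.95, 2.32 and 1.30 CPM with both agents. These libraries overlapped (log2 fold change 0.97 ± 0.29 SE, edgeR adjusted p = 0.0091), and the call was lost in 13 of 23 alternative analyses (highest adjusted p 0.068). They were upper-quartile scaling and leaving out any control library, replicate 2, 3 or 4 of IL-1β or of both agents, or butyrate replicate 2 or 3. Ltbp1, which encodes a protein that holds latent TGFβ in the matrix, had 1.54 ± 0.23 CPM (SD) in control and 0.974 ± 0.52 with IL-1β (edgeR adjusted p = 0.10). Fst, for the activin trap follistatin, had condition means of 0.649 to 1.02 CPM and Grem1, for the BMP antagonist gremlin, of 0.246 to 0.548 CPM.

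The effects of butyrate with and without IL-1β were compared directly for each gene. For the members 0 of 39 differences were called, against 0.0968% of all genes (18 of 18587), and DESeq2 also called 0 members. At an unadjusted p under 0.05 there were 7 members with edgeR and 7 with DESeq2 (17.9% each, against 7.33% and 6.31% of all genes). Those of edgeR were Bmp1, Inhbb, Gdf11, Tgfbr1, Bmpr1b, Id1 and Id3. The lowest of these p-values was that of Id3, whose butyrate effect was higher with IL-1β by 0.40 ± 0.11 (log2, SE; edgeR adjusted p = 0.14). For Id1 it was higher by 0.71 ± 0.22 (edgeR adjusted p = 0.30).

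A further 79 genes of the same pathways gave context, and 60 of them had enough reads. They were listed by role from general knowledge, with earlier results of these data known. IL-1β raised 13 and lowered 3 of the 60 (26.7% called, against 17.8% of all genes). Butyrate raised 9 and lowered 5, and in the presence of IL-1β it raised 6 and lowered 6. These shares of 23.3% and 20% were near the 19.9% and 19.5% of all genes. Both agents against control raised 20 and lowered 7 (45.0%, against 30.6% of all genes). Of 9 tested genes of latency and activation, IL-1β raised 3 (33.3%, against 11.2% of all genes). Among them was Itgb8, for a chain of the integrin that activates latent TGFβ, which rose from 18.4 ± 1.1 CPM (SD) in control to 84.8 ± 6.8 with IL-1β (log2 fold change 2.20 ± 0.06 SE, edgeR adjusted p = 4.4e-20). With both agents it was 57.0 ± 3.6 CPM, below the level with IL-1β alone. The signed log2 change with butyrate was lower with IL-1β than without it, toward a stronger fall (-0.53 ± 0.09, edgeR adjusted p = 0.0044). In that group butyrate alone raised 4 genes (44.4%, against 8.53% of all genes), with log2 fold changes of at most 0.95. In the presence of IL-1β it raised 2 (22.2%, against 8.41%) and lowered 1 (11.1%, against 11.1%). The largest rise there was that of Ltbp4, for a latent TGFβ binding protein. It had 2.10 CPM with IL-1β and 6.60 CPM with both agents (1.65 ± 0.24, edgeR adjusted p = 5.8e-05).

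Among the 10 further secreted antagonists with enough reads, butyrate raised 2 and lowered 2 (20% each, against 8.53% and 11.4% of all genes). Fstl3, which encodes a follistatin-like inhibitor of activin, myostatin and GDF11, had 0.817 ± 0.21 CPM (SD) in control and 2.89 ± 0.30 with butyrate, and 0.926 ± 0.25 with IL-1β and 3.35 ± 0.49 with both agents. Its log2 fold changes with butyrate were 1.82 ± 0.20 (SE) without IL-1β and 1.83 ± 0.20 with it (edgeR adjusted p = 1.3e-07 and 6.7e-08). Of the 10 tested known targets, IL-1β raised 2 and lowered 1, where it raised 11.2% and lowered 6.59% of all genes. It raised Tgfbi (2.24 ± 0.30, edgeR adjusted p = 2e-05) and Junb (1.5 ± 0.09, edgeR adjusted p = 8.1e-11) and lowered Acta2, for smooth muscle actin (-1.64 ± 0.41, edgeR adjusted p = 0.0036). Butyrate lowered the BMP target Atoh8 from 2.64 ± 0.15 to 1.04 ± 0.10 CPM (-1.34 ± 0.19, edgeR adjusted p = 6e-06), and with IL-1β present by -0.69 ± 0.19 on the log2 scale (edgeR adjusted p = 0.0080).

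IL-1β raised 6 of the 19 tested intracellular regulators (31.6%, against 11.2% of all genes), of which the repressor gene Tgif1 changed at least 2-fold (1.73 to 5.21 CPM, log2 fold change 1.59 ± 0.16 SE, edgeR adjusted p = 1.3e-08). Of the 7 further ligands, Gdf10 was raised by IL-1β from 0.214 to 0.917 CPM and by butyrate to 0.684 CPM (2.07 ± 0.34 and 1.66 ± 0.36, edgeR adjusted p = 3.2e-05 and 0.00077). Gdf10 had few reads in control, so the size of these folds is loosely fixed. Of the 5 further receptors and co-receptors, IL-1β lowered Rgma, a BMP co-receptor gene, from 2.10 to 1.03 CPM (-1.04 ± 0.25, edgeR adjusted p = 0.0028). For both agents against control, Fn1, for the matrix protein fibronectin, and Acvrl1, for the endothelial receptor ALK1, were also raised at least 2-fold, by 1.97 ± 0.48 and 1.42 ± 0.28 on the log2 scale (edgeR adjusted p = 0.0051 and 0.00016).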

How the data were processed

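Islet RNA was sequenced single-end (Illumina HiSeq) after library preparation with a NEBNext Ultra II kit, and per the labels the submitters' notes name STAR 2.5.3a and GRCm38.p5 (mm10). The authors deposited raw read counts per gene, whole numbers without normalization, in 1 column for each of the 16 libraries (0 columns of other samples). The strand setting, annotation release and counting program are not given in the sources used here. Reads carried no molecular identifiers.

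Positions, exon lengths and overlaps came from GENCODE M21 (GRCm38), which holds 52489 of the 52636 identifiers, and 10560 genes had no count. In R 4.3.3, edgeR 4.0.16 filtered genes (filterByExpr by condition), scaled counts by TMM and fitted 1 robust quasi-likelihood model with the 4 conditions to all 16 libraries, without a replicate block. Tests were adjusted by Benjamini-Hochberg over all genes with calls at 0.01, as in the study. CPM were not log transformed, and RPKM are CPM per kilobase of exon. Between libraries of 1 condition the chi-square per gene was 1.72 to 13.5, where counting error gives about 1, so no library was a copy of another. The pipeline was tested on simulated data.

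Members with a call of at least 2-fold in 1 of the 4 comparisons are given in all 16 libraries, other called members by their means or libraries, the rest by ranges. Of the further pathway genes, those called with at least a 2-fold change are named, at most 8 a comparison by size. The members and lists were chosen with earlier results of these data known. There were 23 alternatives a comparison: adjusted p under 0.05, 3 other scalings, no filter, DESeq2 1.42.0, a replicate block and leaving out each of the 16 libraries.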

Additional observations from a re-analysis of the deposited data

Results flagged for a closer look

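In 5 of 156 groups of 4 libraries (39 members, 4 conditions), 1 library stood apart from the other 3 by Dixon's test, and chance flags about 1 in 20 groups. Gdf11 had 1.73 CPM in control replicate 1, where the other control libraries had 3.15 to 3.17 CPM. Id4 had 3.54 CPM in control replicate 2, against 2.57 to 2.72 CPM. In IL-1β libraries, Tgfb2 had 1.40 CPM in replicate 3 (others 1.02 to 1.05), Smad7 had 8.40 CPM in replicate 3 (others 9.89 to 10.1) and Bmpr2 had 37.3 CPM in replicate 2 (others 40.7 to 41.0). No cause was tested. The butyrate calls of Gdf11 and Id4 and the IL-1β call of Tgfb2 were kept when any 1 library was left out.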

How the results depend on the processing

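Of 43 calls of a member in a comparison, 33 were kept in all 23 alternatives, 10 were lost in at least 1 and 0 reversed. The alternative at an adjusted p under 0.05 loosens the threshold of the same fit, so it could lose no call. DESeq2, RLE scaling and the replicate block lost none, scaling by library size alone lost 2 (Smad2, Smad9), upper-quartile scaling 1 (Nog) and no filter 1 (Smad2), and the other losses came from leaving out 1 library. Member calls for butyrate against control ranged from 5 (without control replicate 4) to 8 when 1 library was left out. At an adjusted p under 0.05, butyrate in the presence of IL-1β called 5595 genes and 13 members. For the difference of the butyrate effects, 18 genes were called, 39 at an adjusted p under 0.05, 95 with no filter, 52 with DESeq2, 132 with the replicate block and 11 (without butyrate replicate 1) to 25 with 1 library left out. The causes were not tested.

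With the replicate block, called members were 15 (IL-1β against control), 10 (butyrate against control), 12 (both agents against IL-1β), 17 (both agents against control) and 0 (difference), and called genes were 4537, 4879, 4983, 6899 and 132, against 3311, 3697, 3629, 5688 and 18 without it. The block also called Bmp7 for butyrate against control (log2 fold change 0.61, edgeR adjusted p = 0.0063), and lowered members for both agents against IL-1β were 4 with it and 4 at an adjusted p under 0.05, against 1. The libraries are numbered, but the labels do not say that the same number in different conditions is the same experiment. Deviations of libraries with the same number correlated positively in all 24 pairs (r 0.0535 to 0.397), and in 17 of them r was over 0.1. The numbers were not taken as pairs because not every pair passed 0.1, a bound that does not show the libraries to be unpaired. As a further hint of a pairing, 14 of 16 libraries correlated best with their own number. The sample numbers in the column names also run by replicate number. The median r was 0.118 for the 24 pairs with the same number and -0.0404 for the 72 pairs with different numbers. The main tests do not use such a pairing and so leave out a block if it holds. Depth limits Inhbb, Bmp5 and Grem1 among the members and Gdf10 among the further genes, whose counts were few.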
